A study of Homo sapiens with 24 samples.

Results

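DDIT3, ATF3, ASNS and SESN2 are transcriptional targets of the integrated stress response, and they are described here across every treatment and time of an array study of HepG2 cells, an established human liver carcinoma line. Each gene was taken by its symbol, each has 1 probe set in the deposited table, and together they are 4 of 14884 genes tested. Expression was measured on 24 whole-transcript arrays in 8 groups. BRD8518, a small molecule known by this code name, was given at 1 uM for 1 h, 6 h or 24 h, on 3, 2 and 3 arrays. Oncostatin M (OSM), a cytokine of the interleukin-6 family that signals through gp130, was given at 100 ng/mL for 1 h or 24 h, on 3 arrays each. Vehicle controls were taken at the same times, on 3 arrays at 1 h, 4 at 6 h and 3 at 24 h, and all wells, 10000 cells each at plating, held 0.25% DMSO. OSM at 6 h was not analysed here. The cells are 1 tumour line. The labels do not state whether the arrays of a group stem from separate cultures, and a p-value here weighs a difference against array-to-array spread alone, which may be technical.

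In the integrated stress response, several kinases that sense unfolded protein, amino acid shortage, viral RNA or haem deficit phosphorylate the translation initiation factor eIF2. General protein synthesis slows, while translation of the transcription factor ATF4 increases, and ATF4 then raises genes for amino acid supply, redox defence and, under prolonged stress, cell death. DDIT3 encodes CHOP and ATF3 encodes activating transcription factor 3, both basic leucine zipper (bZIP) proteins that dimerise with other members of that family. ASNS encodes asparagine synthetase, the enzyme that makes asparagine from aspartate, and SESN2 encodes sestrin 2, a leucine-binding protein that restrains the growth kinase complex mTORC1. In the liver this response is engaged by amino acid imbalance, secretory load and mitochondrial stress, and ATF3 is also known as an immediate early gene of cytokine and growth factor signalling.

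The RefSeq promoter windows of the 4 genes (GRCh38.p14, from 250 bases before to 50 bases after the start of transcription) are shown because the genes share a pathway but differed in the timing of their changes. Both strands were searched for the C/EBP-ATF composite element bound by ATF4 (TGATGNAAN), the cyclic AMP response element (TGACGTCA), the AP-1 element (TGANTCA) and the ER stress element (by its name alone), and matches are in capitals. The windows lie at chr12:57520465-57520764 on the minus strand for DDIT3, chr1:212565157-212565456 on the plus strand for ATF3, chr7:97872359-97872658 on the minus strand for ASNS and chr1:28259268-28259567 on the plus strand for SESN2, each printed 5′ to 3′ on the gene's strand.
DDIT3: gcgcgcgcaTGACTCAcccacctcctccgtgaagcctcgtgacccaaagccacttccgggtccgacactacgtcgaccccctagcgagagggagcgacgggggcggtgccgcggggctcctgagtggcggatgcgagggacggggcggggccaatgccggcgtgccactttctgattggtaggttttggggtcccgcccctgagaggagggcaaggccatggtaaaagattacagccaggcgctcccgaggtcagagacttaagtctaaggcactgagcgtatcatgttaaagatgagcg
ATF3: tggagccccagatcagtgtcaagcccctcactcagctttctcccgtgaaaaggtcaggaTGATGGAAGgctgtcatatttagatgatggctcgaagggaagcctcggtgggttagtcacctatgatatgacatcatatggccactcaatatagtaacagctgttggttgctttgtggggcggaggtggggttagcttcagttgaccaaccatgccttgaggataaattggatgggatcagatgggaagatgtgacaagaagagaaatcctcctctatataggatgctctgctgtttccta
ASNS: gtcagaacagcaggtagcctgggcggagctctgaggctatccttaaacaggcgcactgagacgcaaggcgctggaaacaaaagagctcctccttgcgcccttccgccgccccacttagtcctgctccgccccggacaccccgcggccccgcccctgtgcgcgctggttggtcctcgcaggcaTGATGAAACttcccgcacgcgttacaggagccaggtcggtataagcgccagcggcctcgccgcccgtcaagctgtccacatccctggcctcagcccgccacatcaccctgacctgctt
SESN2: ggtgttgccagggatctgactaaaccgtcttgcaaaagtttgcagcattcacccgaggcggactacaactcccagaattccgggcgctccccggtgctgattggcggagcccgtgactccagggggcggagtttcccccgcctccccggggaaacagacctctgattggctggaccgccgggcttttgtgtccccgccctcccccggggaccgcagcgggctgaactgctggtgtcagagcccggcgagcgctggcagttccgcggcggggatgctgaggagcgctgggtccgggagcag
The composite element was present in the ATF3 window, with its first base 191 bases upstream of the start, and in the ASNS window, 68 bases upstream; 3.61% of 35116 promoter windows held it. The DDIT3 window held an AP-1 element 241 bases upstream, as did 7.71% of all windows in some position. None of these elements was found in the SESN2 window, which says only that these letters are absent from it. The cyclic AMP response element was in none of the 4 windows and in 1.85% of all windows. An exact ER stress element was in none of the 4 and in 0.0769%. The DDIT3 window holds ccaatgccggcgtgccact, which differs from the searched letters of that element only at the last base, and near matches were not counted. RefSeq also lists a second window for DDIT3, ATF3 and ASNS. That of DDIT3 is shifted by a few bases and holds the same AP-1 element, while those of ATF3 and ASNS hold no match in capitals. The printed ATF3 window lies at the 5′ end of the gene, and its second window lies at chr1:212614768-212615067. Any start of transcription outside the listed windows was not searched. A match is a description of the letters and not evidence of binding.

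Values are the authors' log2 expression values, and a change is the difference between group means on that scale, with its standard error (SE) from 1 fit over all arrays. A gene is said to rise or fall only where its adjusted p, over all 14884 genes of a comparison, was under 0.05. The hepatic label was checked first. Of 15 hepatocyte markers 12 were measured, and ALB, APOB and AFP had means of 12.33, 12.54 and 11.75, among the highest of all genes. Of 12 markers of other cell types 8 were measured. VWF, PECAM1, VIM and LYVE1 had means of 5.03, 5.62, 5.82 and 6.83, while KRT19, EPCAM, CD68 and SOX9 stood at 8.07, 8.77, 9.81 and 10.77. DMSO 6 h replicate 2 stood apart, with a correlation to the rest of its group of 0.978 where the other arrays had 0.9935 or more. The labels carry a position letter of unstated meaning, and all 6 h arrays share the letter D. Comparisons of levels between 6 h and other times thus cannot be told apart from that letter. At 24 h the letters were A, with A and B for DMSO. At 1 h they were B, with B and C for BRD8518, so time and letter were largely confounded there too. Only 1 BRD8518 array at 1 h shared the letter B with the 3 DMSO arrays of that time. In bulk samples, fewer cells of a type and less RNA per cell cannot be told apart.

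**Figure D1:**
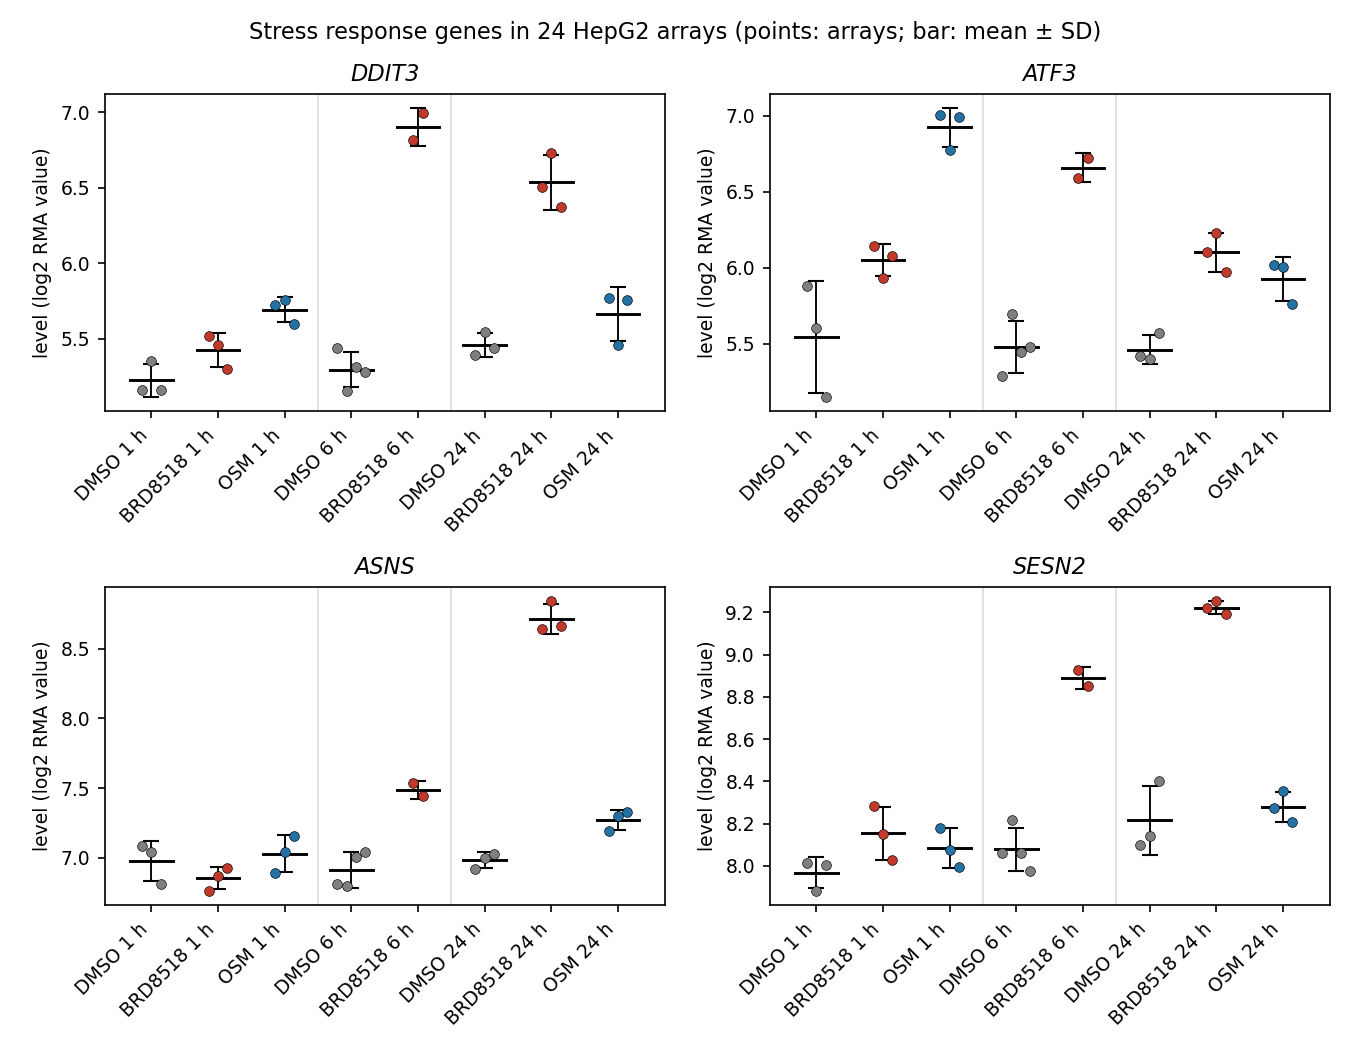
Level of each gene (log2 value of the authors' normalized data, vertical axis, own scale per panel) in the 24 arrays by treatment and time (horizontal axis); points are arrays, bars the group mean ± SD, grey DMSO, red BRD8518, blue OSM. Both BRD8518 arrays at 6 h and the 3 at 24 h lie above every DMSO array of the same time in all 4 panels, as for 11.9% and 19.8% of all genes. ATF3 is highest in OSM at 1 h, and ASNS is highest in BRD8518 at 24 h.

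With BRD8518 all 4 genes rose at 6 h and again stood above vehicle at 24 h. DDIT3 and ATF3 had the larger change at 6 h and ASNS and SESN2 at 24 h, a difference between times that passed for DDIT3 and ASNS. DDIT3 was 3.05-fold higher at 6 h and 2.11-fold at 24 h, ATF3 2.26-fold and 1.56-fold, ASNS 1.49-fold and 3.33-fold, and SESN2 1.75-fold and 2.01-fold. By mean over all arrays DDIT3 and ATF3 stood at the 44.8 and 49.5 percentile of genes, and ASNS and SESN2 at 69.1 and 83.4. How near background DDIT3 and ATF3 lay was not tested. Sizes of change are thus not strictly comparable between the genes. Among all genes, 5.62% rose at 6 h and 12.1% at 24 h. The median change of the 4 genes was 0.99 at 6 h and 1.04 at 24 h, against a median of -0.01 and -0.00 over all genes tested. At 1 h none of the 4 passed limma's test, where 0.255% of all genes did, and 2 of the 4 (ATF3 and SESN2) had an unadjusted p under 0.05, as did 5.11% of all genes. With OSM, DDIT3 and ATF3 rose at 1 h (2.03% of all genes rose), and ATF3 and ASNS rose slightly at 24 h (4.6% of all genes rose). The comparisons at 1 time share their DMSO arrays, so the BRD8518 and OSM changes are given side by side and not as independent evidence.

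DDIT3, the CHOP gene, was near 5.3 in vehicle and rose most at 6 h. The DMSO arrays read 5.16, 5.35 and 5.16 at 1 h, 5.44, 5.15, 5.31 and 5.28 at 6 h, and 5.39, 5.54 and 5.44 at 24 h. The BRD8518 arrays read 5.52, 5.46 and 5.30 at 1 h, 6.82 and 6.99 at 6 h, and 6.50, 6.73 and 6.37 at 24 h. At 6 h and 24 h every BRD8518 array was above every vehicle array, as for 11.9% and 19.8% of all genes, whereas at 1 h the groups overlapped. The change was 0.20 ± 0.10 (SE, n = 3 and 3, adjusted p = 1) at 1 h, 1.61 ± 0.11 (n = 2 and 4, adjusted p = 8.27e-10) at 6 h and 1.08 ± 0.10 (n = 3 and 3, adjusted p = 3.67e-08) at 24 h. By size of rise DDIT3 ranked 31st among 14884 genes at 6 h and 249th at 24 h. The effect grew by 1.41 ± 0.15 from 1 h to 6 h (adjusted p = 4.18e-06), and 2.1% of all genes passed in that direction. It then declined by -0.53 ± 0.15 from 6 h to 24 h (adjusted p = 0.0259), where 5.12% of all genes passed downward. That decline missed the threshold in a fit of the compared groups alone (adjusted p = 0.0778) and without BRD8518 24 h replicate 1 (-0.51), BRD8518 24 h replicate 3 (-0.45), DMSO 24 h replicate 2 (-0.49) or BRD8518 6 h replicate 2 (-0.44).

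With OSM, DDIT3 rose at 1 h and did not pass at 24 h. The OSM arrays read 5.73, 5.76 and 5.60 at 1 h and 5.77, 5.46 and 5.76 at 24 h. At 1 h all 3 were above the vehicle arrays, while at 24 h replicate 2 lay among them. The change was 0.47 ± 0.10 at 1 h (1.38-fold, adjusted p = 0.0113) and 0.20 ± 0.10 at 24 h (adjusted p = 0.3). Arrays lay above vehicle in this way for 11.6% of all genes at 1 h. The call at 1 h was lost without OSM 1 h replicate 1 (0.45), OSM 1 h replicate 2 (0.44), DMSO 1 h replicate 1 (0.44) or DMSO 1 h replicate 3 (0.44). Set directly against OSM, BRD8518 gave a DDIT3 level that was 0.87 ± 0.10 higher at 24 h (adjusted p = 1.24e-06), with no overlap of arrays, and 10.9% of all genes passed upward while 20% had no overlap. At 1 h the difference was -0.27 ± 0.10, with every BRD8518 array under every OSM array, as for 8.73% of all genes, but it did not pass (adjusted p = 0.296; 95% confidence interval -0.48 to -0.05). By group mean the order of DDIT3 was BRD8518 6 h (6.90), BRD8518 24 h (6.54), OSM 1 h (5.69), OSM 24 h (5.66), DMSO 24 h (5.46), BRD8518 1 h (5.43), DMSO 6 h (5.30) and DMSO 1 h (5.22). The arrays of the first 2 groups in that order were apart from each other and from the third, and from the third on each group overlapped with the next.

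The position of DDIT3 in the genome bears on its reading. RefSeq places it at chr12:57516588-57520517 on GRCh38.p14, where it overlaps MARS1, a methionyl-tRNA synthetase gene and itself on the synthetase list below, as well as MIR616 and LOC128125814. The submitted files name no build or strand for the probe sets, so signal from an overlapping transcript could not be assessed from the annotation. MARS1 changed by 0.10 ± 0.08 at 6 h (adjusted p = 0.511), when DDIT3 was at its highest, and rose by 0.69 ± 0.08 at 24 h (adjusted p = 2.91e-07). The part of MARS1 in the DDIT3 values was not tested.

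ATF3 had its highest level after 1 h of OSM and its BRD8518 maximum at 6 h. The vehicle arrays read 5.88, 5.60 and 5.15 at 1 h, 5.29, 5.70, 5.45 and 5.48 at 6 h, and 5.42, 5.40 and 5.57 at 24 h, so its vehicle spread at 1 h (SD 0.369) was the widest among the vehicle groups. The OSM arrays read 7.003, 6.78 and 6.99 at 1 h and 6.02, 6.01 and 5.76 at 24 h. Every OSM array was above the vehicle arrays of its time, as for 11.6% of all genes at 1 h and 14.2% at 24 h. The rise was 1.38 ± 0.14 at 1 h (2.60-fold, adjusted p = 4.19e-07), the 35th largest rise of that comparison, and 0.46 ± 0.14 at 24 h (1.38-fold, adjusted p = 0.0318). The OSM effect was smaller at 24 h than at 1 h by -0.91 ± 0.19 (adjusted p = 0.00694), and 2.1% of all genes passed in that direction. The 24 h call was lost without OSM 24 h replicate 1 (0.42), OSM 24 h replicate 2 (0.43), DMSO 24 h replicate 1 (0.44) or DMSO 24 h replicate 2 (0.43), and with the position letter as a fixed term (adjusted p = 0.0503).

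With BRD8518, ATF3 read 6.14, 5.93 and 6.07 at 1 h, 6.59 and 6.72 at 6 h, and 6.11, 6.23 and 5.97 at 24 h. At each time the BRD8518 arrays were above the vehicle arrays, as were those of 7.97% of all genes at 1 h, 11.9% at 6 h and 19.8% at 24 h. The change at 1 h was 0.51 ± 0.14 and did not pass (adjusted p = 0.264), although without DMSO 1 h replicate 1, the highest vehicle array, it was 0.67 and passed (adjusted p = 0.036). Without DMSO 1 h replicate 3, the lowest, it was 0.31 (adjusted p = 1). The rises were 1.18 ± 0.15 at 6 h (adjusted p = 4.53e-06) and 0.64 ± 0.14 at 24 h (adjusted p = 0.000926). The effect was larger at 6 h than at 1 h by 0.67 ± 0.20, barely under the threshold (adjusted p = 0.0496), and over 12 fits that each left out 1 array (0.51 to 0.87) it passed only without DMSO 1 h replicate 3 or DMSO 6 h replicate 2. From 6 h to 24 h it changed by -0.54 ± 0.20 (adjusted p = 0.0963), which passed without DMSO 6 h replicate 2 (-0.61, adjusted p = 0.0346).

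Against OSM at 1 h, BRD8518 left ATF3 lower by -0.87 ± 0.14 (adjusted p = 0.000336), where 1.5% of all genes passed as lower. With the position letter as a fixed term that difference was -0.78 and did not pass (adjusted p = 0.0658). At 24 h the treatments differed by 0.18 ± 0.14 (adjusted p = 0.438), with a 95% confidence interval of -0.11 to 0.46. The order of ATF3 levels was OSM 1 h (6.92), BRD8518 6 h (6.66), BRD8518 24 h (6.10), BRD8518 1 h (6.05), OSM 24 h (5.93), DMSO 1 h (5.54), DMSO 6 h (5.48) and DMSO 24 h (5.46). The arrays of OSM 1 h and of BRD8518 6 h were each clear of the next group, and from BRD8518 24 h downward each group overlapped with its neighbour. RefSeq places ATF3 at chr1:212565407-212620777 with no overlapping gene.

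**Figure D2:**
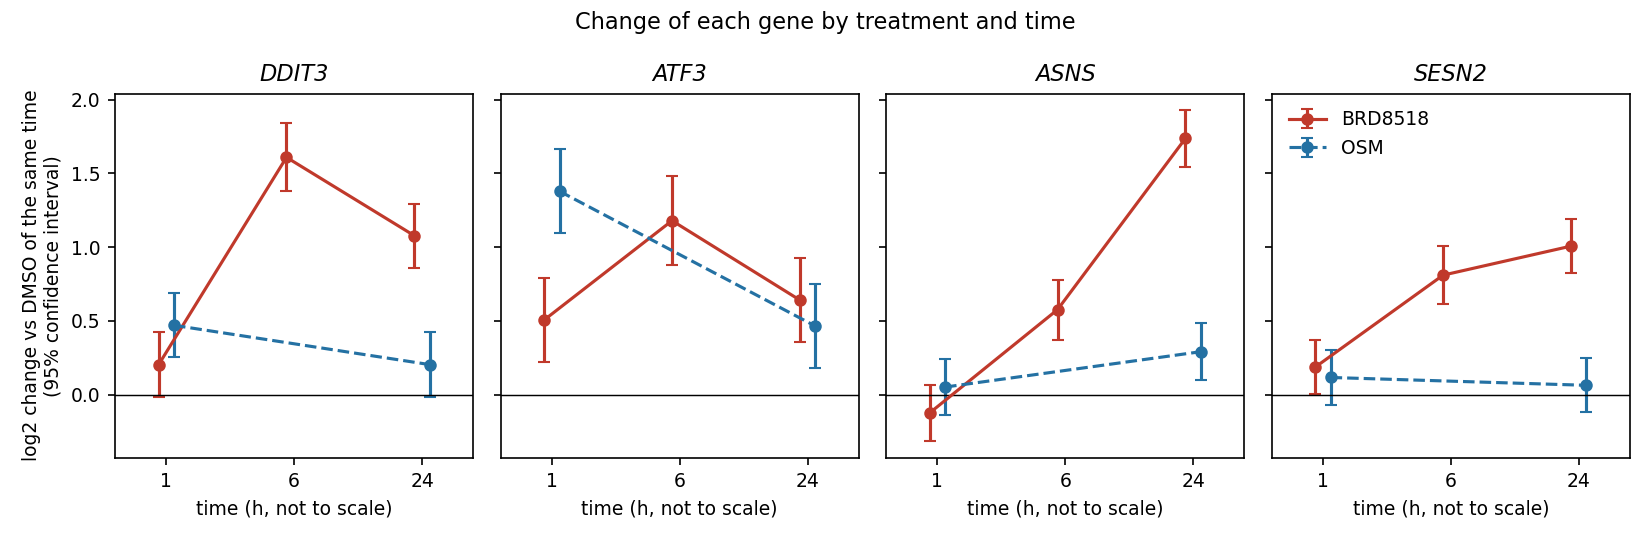
Change of each gene against DMSO of the same time (log2 difference of group means with 95% confidence interval, vertical axis) at 1 h, 6 h and 24 h (horizontal axis, not to scale); red solid, BRD8518, blue dashed, OSM, which has no 6 h point. Under BRD8518, DDIT3 and ATF3 have their largest change at 6 h (1.61 and 1.18), though for ATF3 the difference from 24 h did not pass. ASNS is highest at 24 h (1.74), SESN2 stands at 0.81 and 1.01 at 6 h and 24 h, and OSM exceeds BRD8518 for ATF3 at 1 h (1.38 against 0.51).

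ASNS, the asparagine synthetase gene, rose late and reached the largest change of the 4. Vehicle arrays read 7.08, 7.04 and 6.81 at 1 h, 6.81, 6.80, 7.003 and 7.04 at 6 h, and 6.92, 6.997 and 7.03 at 24 h. BRD8518 arrays read 6.76, 6.87 and 6.92 at 1 h, 7.53 and 7.44 at 6 h, and 8.64, 8.84 and 8.67 at 24 h. The 1 h arrays lay within or just under the vehicle range. Those of the later times were above it, as for 11.9% of all genes at 6 h and 19.8% at 24 h. The change was -0.12 ± 0.09 at 1 h (adjusted p = 1), 0.58 ± 0.10 at 6 h (adjusted p = 0.000217) and 1.74 ± 0.09 at 24 h (adjusted p = 2.63e-12), the 65th largest rise among 14884 genes. In a fit of the 6 h groups alone the 6 h change had an adjusted p of 0.0527. The effect grew by 0.70 ± 0.13 from 1 h to 6 h (adjusted p = 0.00223) and by a further 1.16 ± 0.13 from 6 h to 24 h (adjusted p = 4.12e-06), where 5.96% of all genes passed upward.

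OSM arrays read 6.89, 7.04 and 7.15 for ASNS at 1 h and 7.19, 7.30 and 7.32 at 24 h. The 1 h arrays overlapped with vehicle (0.05 ± 0.09, adjusted p = 0.936). At 24 h all 3 were above vehicle, as for 14.2% of all genes, by 0.29 ± 0.09 (1.22-fold, adjusted p = 0.0485), a call that was lost without any one of the 6 arrays compared (OSM replicates 1, 2 and 3 gave 0.33, 0.28 and 0.26, and DMSO replicates 1, 2 and 3 gave 0.26, 0.30 and 0.31). BRD8518 stood above OSM at 24 h by 1.45 ± 0.09 (2.72-fold, adjusted p = 7.88e-11), and 10.9% of all genes passed in that direction. At 1 h that difference was -0.18 ± 0.09 (adjusted p = 0.563). The order of ASNS levels was BRD8518 24 h (8.72), BRD8518 6 h (7.49), OSM 24 h (7.27), OSM 1 h (7.03), DMSO 24 h (6.98), DMSO 1 h (6.98), DMSO 6 h (6.91) and BRD8518 1 h (6.85). The first 3 groups were each apart from the next, and from OSM 1 h on neighbours overlapped. ASNS lies at chr7:97851677-97928441, overlaps the readthrough gene CZ1P-ASNS and has 5 numbered pseudogenes, so its probe set may also read related sequence.

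SESN2 rose by 6 h and had its highest level at 24 h. Vehicle arrays read 8.02, 7.88 and 8.004 at 1 h, 8.06, 8.22, 8.06 and 7.98 at 6 h, and 8.10, 8.14 and 8.40 at 24 h. BRD8518 arrays read 8.28, 8.15 and 8.03 at 1 h, 8.92 and 8.85 at 6 h, and 9.22, 9.25 and 9.19 at 24 h. All BRD8518 arrays were above the vehicle arrays of their time, by a narrow margin at 1 h, as for 7.97%, 11.9% and 19.8% of all genes at 1 h, 6 h and 24 h. The change was 0.19 ± 0.09 at 1 h (adjusted p = 0.964), 0.81 ± 0.09 at 6 h (adjusted p = 1.89e-06) and 1.01 ± 0.09 at 24 h (adjusted p = 7.59e-09). The growth of the effect from 1 h to 6 h, 0.62 ± 0.13, passed (adjusted p = 0.00425), though not with the position letter as a fixed term (0.50, adjusted p = 0.0593). The step from 6 h to 24 h, 0.20 ± 0.13, did not pass (adjusted p = 0.429; 95% confidence interval -0.07 to 0.46).

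OSM arrays read 8.18, 8.08 and 7.99 for SESN2 at 1 h and 8.27, 8.35 and 8.21 at 24 h, within or near the vehicle range at both times. The changes, 0.12 ± 0.09 and 0.06 ± 0.09, did not pass (adjusted p = 0.756 and 0.804), and their 95% confidence intervals reached 0.30 and 0.25 at the upper end. At 24 h BRD8518 exceeded OSM by 0.94 ± 0.09 (adjusted p = 3.53e-08). The order of SESN2 levels was BRD8518 24 h (9.22), BRD8518 6 h (8.89), OSM 24 h (8.28), DMSO 24 h (8.22), BRD8518 1 h (8.15), OSM 1 h (8.08), DMSO 6 h (8.08) and DMSO 1 h (7.97), and only the first 2 were clear of the group after them. SESN2 lies at chr1:28259518-28282491 with no overlapping gene in RefSeq.

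The other members of the sestrin family fell at 24 h where SESN2 rose. SESN1 is best known as a p53 target while SESN3 is known as a FOXO target. At 24 h SESN1 read 7.35, 7.31 and 7.33 in vehicle, 6.47, 6.52 and 6.53 with BRD8518, and 6.85, 6.76 and 6.85 with OSM. It fell with both agents, by -0.82 ± 0.13 with BRD8518 (adjusted p = 3.23e-05) and by -0.51 ± 0.13 with OSM (adjusted p = 0.0119), the latter lost without OSM 24 h replicate 2 (-0.48). SESN3 read 5.52, 5.20 and 5.36 in vehicle, 4.36, 4.76 and 4.75 with BRD8518, and 5.50, 5.60 and 5.61 with OSM. It fell with BRD8518 (-0.74 ± 0.13, adjusted p = 0.000104), and its OSM change of 0.21 ± 0.13 did not pass (adjusted p = 0.42). SESN3 levels were low, and how near background they lay was not tested. Against OSM, SESN3 in BRD8518 was lower by -0.95 ± 0.13 (adjusted p = 6.9e-06), and the SESN1 difference of -0.31 ± 0.13 did not pass (adjusted p = 0.0927). At 6 h the SESN1 change with BRD8518 was -0.28 ± 0.14 (adjusted p = 0.217). Without DMSO 6 h replicate 2, which read 6.55 where the other vehicle arrays of that time read 7.28, 7.39 and 7.16, it was -0.46 ± 0.06 and passed (adjusted p = 2.03e-05).

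**Figure D3:**
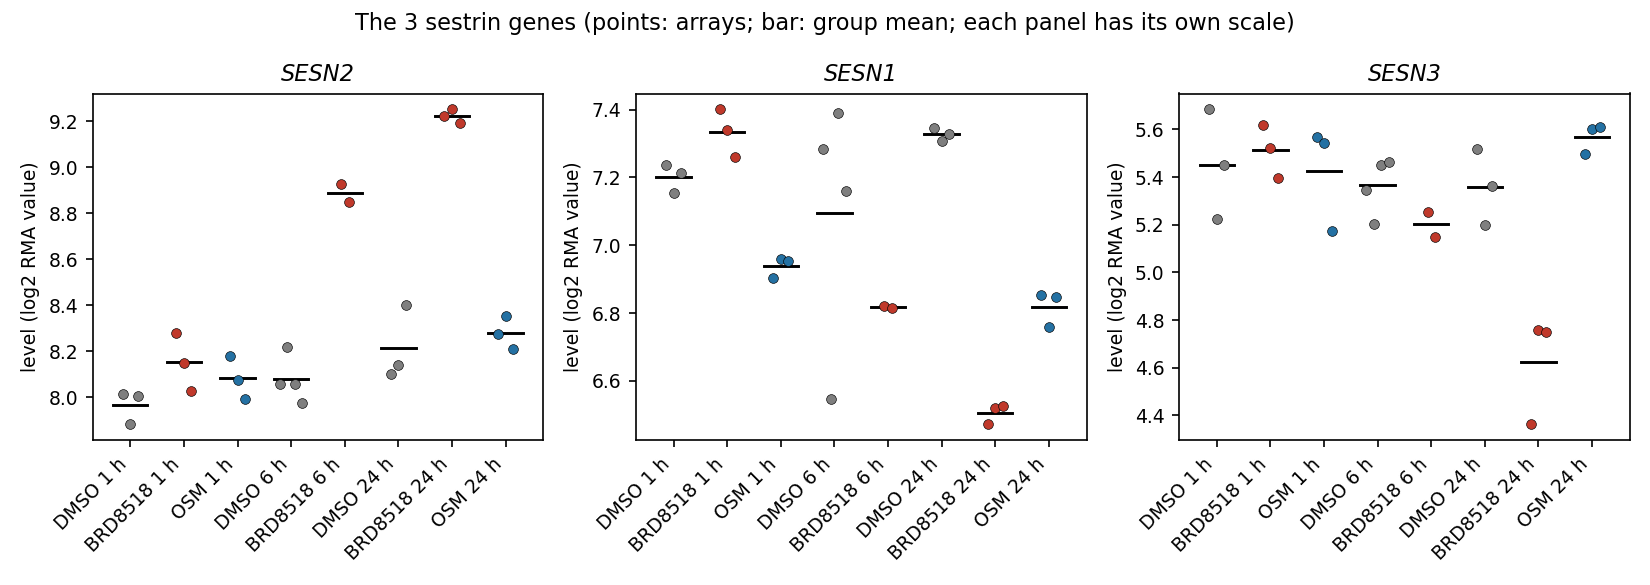
Level of the sestrin genes (log2 value, vertical axis, own scale per panel) by treatment and time (horizontal axis); points are arrays and bars group means, grey DMSO, red BRD8518, blue OSM. At 24 h the BRD8518 arrays are the highest for SESN2 (9.19 to 9.25) and the lowest for SESN1 (6.47 to 6.53) and SESN3 (4.36 to 4.76), and 1 DMSO 6 h array lies apart for SESN1 at 6.55.

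In vehicle alone none of the 4 genes passed limma's test between any times. Of all genes 0.00672% passed between 1 h and 6 h, 0% between 6 h and 24 h and 0% between 1 h and 24 h, with 947, 599 and 424 genes at an unadjusted p under 0.05. These were 6.36%, 4.02% and 2.85% of all genes, and of the 4 genes 0, 0 and 2 had such a p. DDIT3 and SESN2 were higher in every DMSO array at 24 h than at 1 h, by 0.23 ± 0.10 and 0.25 ± 0.09 (adjusted p = 1 for both), as 6.23% of all genes were. Over all treatments the BRD8518 effect at 24 h exceeded that at 1 h for DDIT3 (0.87 ± 0.15, adjusted p = 0.00015), ASNS (1.86 ± 0.13, adjusted p = 9.77e-10) and SESN2 (0.82 ± 0.13, adjusted p = 4.51e-05), where 7.24% of all genes passed upward. For ATF3 the difference was 0.13 ± 0.19 (adjusted p = 0.758). At 24 h, within the arrays of position letter A (3 BRD8518, 2 DMSO), the BRD8518 changes were 1.07 for DDIT3, 0.70 for ATF3, 1.76 for ASNS and 1.10 for SESN2. At 6 h, without DMSO 6 h replicate 2, they were 1.56, 1.25, 0.54 and 0.86, and all 4 passed.

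Hepatocyte markers moved beside these changes. With BRD8518 at 24 h, 7 of 12 measured hepatocyte markers were lower, where 15.6% of all genes fell, and their mean level per array was 10.80 to 10.89 against 11.14 to 11.20 in vehicle. At 6 h 3 were lower, where 8.86% of all genes fell, with array means of 11.11 to 11.14 against 11.20 to 11.25. With OSM at 1 h 2 were higher and 1 lower, where 2.03% and 0.813% of all genes rose and fell, with array means of 11.29 to 11.31 against 11.13 to 11.21. With OSM at 24 h 2 were higher and 5 lower, where 4.6% and 5.65% rose and fell, with array means of 11.15 to 11.22. The 2 higher at both times were FGB (1.14 at 1 h, 1.51 at 24 h) and FGA (0.62 and 0.89). The 5 lower at 24 h were APOA1, APOH, TTR, TF and AFP, so the list mean combined changes in both directions. Of the 8 markers of other cell types, 2 were higher with BRD8518 at 24 h (12.1% of all genes rose), CD68 by 1.19 and KRT19 by 0.97. With OSM at 24 h 3 were higher and 1 lower, where 4.6% and 5.65% of all genes rose and fell. LYVE1 was higher by 2.70, by far the largest of these changes, CD68 by 0.34 and SOX9 by 0.21, and PECAM1 changed by -0.43. The array means of the 8 markers at 24 h were 7.72 to 7.78 with BRD8518 and 7.80 to 7.85 with OSM, against 7.44 to 7.56 in vehicle. At 6 h CD68, a macrophage marker, was higher with BRD8518 by 0.51 (adjusted p = 0.000137), where 5.62% of all genes rose, and the array means were 7.55 to 7.64 against 7.45 to 7.53. At 1 h SOX9 was higher with BRD8518 by 0.27 (adjusted p = 0.0426) and LYVE1 with OSM by 0.83 (adjusted p = 0.00235), and the array means were 7.47 to 7.55 and 7.58 to 7.66 against 7.39 to 7.55 in vehicle. The part of these shifts in the results was not tested.

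The wider pathway was followed through 9 lists arranged by role, holding 99 genes of which 59 were measured, 55 of them besides the 4 described above. The lists were chosen with earlier results of these data known, so their passing shares are descriptions and not a test of the pathway. With BRD8518, 1 of the 55, GDF15, passed at 1 h, 11 rose and 4 fell at 6 h, and 24 rose and 13 fell at 24 h. This was 1.82%, 27.3% and 67.3% of them passing in either direction, against 0.255%, 14.5% and 27.7% of all genes. With OSM, 4 rose and 1 fell at 1 h, and 9 rose and 3 fell at 24 h, which was 9.09% and 21.8% against 2.84% and 10.3% of all genes. Without DMSO 6 h replicate 2 the BRD8518 counts at 6 h were 12 and 9, while the count over all genes also grew, from 2155 to 3345 passing. The median change of the 55 at 24 h was 0.17 with BRD8518 and 0.07 with OSM, against -0.00 and 0.01 over all genes. The genes of 1 of the 9 lists, amino acid transport (10 genes), were not analysed here.

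Upstream, the transcript of ATF4 itself did not pass in any comparison with vehicle. It had a mean of 9.50 in DMSO and 9.49 in BRD8518 at 6 h, and its change was -0.01 ± 0.08 (adjusted p = 0.965) at 6 h and 0.06 ± 0.08 (adjusted p = 0.644) at 24 h. ATF4 is regulated in large part at translation, which arrays do not read. Of the kinases that phosphorylate eIF2, EIF2AK3 (PERK) and EIF2AK4 (GCN2) changed by -0.24 ± 0.09 (adjusted p = 0.0374) and -0.30 ± 0.07 (adjusted p = 0.00386) at 24 h, the former lost in 8 of 16 alternative fits. Among bZIP factors JDP2, a partner of the AP-1 proteins, rose by 0.67 ± 0.12 at 24 h (adjusted p = 0.000111). It was the third of 5 measured factors to rise, beside DDIT3 and ATF3, where 12.1% of all genes rose.

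Of 5 feedback and death effectors, 1 rose at 6 h and 3 at 24 h with BRD8518, where 5.62% and 12.1% of all genes rose. TRIB3, a pseudokinase induced by ATF4 and CHOP, rose by 0.78 ± 0.10 at 6 h (adjusted p = 3.96e-06) and 1.23 ± 0.09 at 24 h (adjusted p = 4.36e-10). PMAIP1 (NOXA) rose by 1.18 ± 0.11 at 24 h, and BBC3 (PUMA) by 0.50 ± 0.15, the latter call lost without BRD8518 24 h replicate 2 (0.43). Both encode BH3-only proteins that promote cell death. PMAIP1 also rose with OSM, by 0.65 ± 0.11 at 1 h and 0.62 ± 0.11 at 24 h. TRIB3 did not pass with OSM at either time.

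ASNS was 1 of 8 measured genes of amino acid synthesis, of which 3, ASNS included, rose and 2 fell with BRD8518 at 24 h, where 12.1% of all genes rose and 15.6% fell. CTH, the cystathionine gamma-lyase that makes cysteine, rose by 0.67 ± 0.15 at 6 h and 1.87 ± 0.14 at 24 h (3.65-fold, adjusted p = 8.95e-10). Its 6 h call was lost without BRD8518 6 h replicate 1 (0.64) and in a fit of the 6 h groups alone (adjusted p = 0.224). DMSO 6 h replicate 2 read 6.54 for CTH where the other vehicle arrays of that time read 7.34, 7.41 and 7.20. Without that array the CTH change at 6 h was 0.48 and passed. SHMT2, the mitochondrial serine hydroxymethyltransferase, rose by 0.32 ± 0.08 at 24 h. PSPH, the last enzyme of serine synthesis, and PYCR1, of proline synthesis, changed by -0.62 ± 0.09 and -0.38 ± 0.08. With OSM, PHGDH, which starts serine synthesis, changed by -0.43 ± 0.08 at 24 h.

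Of 12 aminoacyl-tRNA synthetases, which charge tRNAs with amino acids, 9 rose with BRD8518 at 24 h, where 12.1% of all genes rose. SARS1 rose by 1.00 ± 0.07, CARS1 by 0.91 ± 0.10, MARS1 by 0.69 ± 0.08 and YARS1 by 0.59 ± 0.09, and the list's median change was 0.48. At 6 h 3 rose and 1 fell, where 5.62% and 8.86% of all genes did. SARS1 rose by 0.47 ± 0.08, YARS1 by 0.35 ± 0.10 and GARS1 by 0.29 ± 0.08. All 3 calls were lost in a fit of the 6 h groups alone (adjusted p = 0.083, 0.332 and 0.36). Those of YARS1 (0.26) and GARS1 (0.23) were also lost without BRD8518 6 h replicate 1, and that of GARS1 without BRD8518 6 h replicate 2 (0.35). The fall of AARS1 at that time (-0.24 ± 0.08) was lost in 8 of 15 alternative fits. With OSM at 24 h 3 rose, WARS1 by 0.45 ± 0.09, CARS1 by 0.38 ± 0.10 and TARS1 by 0.32 ± 0.06. The CARS1 call was lost without OSM 24 h replicate 3 (0.36), DMSO 24 h replicate 1 (0.31) or DMSO 24 h replicate 2 (0.36).

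SESN2 belonged to 9 measured genes of mTORC1 restraint and redox stress. GDF15, a secreted stress hormone, rose in all 5 comparisons with vehicle, by 0.58 ± 0.10, 1.45 ± 0.10 and 1.53 ± 0.10 with BRD8518 at 1 h, 6 h and 24 h and by 0.81 ± 0.10 and 0.57 ± 0.10 with OSM at 1 h and 24 h. Its 1 h rise with BRD8518 was lost without BRD8518 1 h replicate 2 (0.53) and with the position letter as a fixed term (0.49). SRXN1, the sulfiredoxin that repairs oxidised peroxiredoxins, rose with BRD8518 by 1.29 ± 0.10 at 6 h and 1.07 ± 0.10 at 24 h, and with OSM at 24 h changed by -0.31 ± 0.10, a fall lost in 8 of 16 alternative fits. DDIT4 (REDD1), another mTORC1 inhibitor, fell with OSM at 1 h by -0.51 ± 0.11, a call lost without OSM 1 h replicate 1 (-0.44) or DMSO 1 h replicate 1 (-0.47). Of 10 listed secreted and other ATF4-linked genes 7 were measured, and all 7 rose with BRD8518 at 24 h, where 12.1% of all genes rose. They were led by VLDLR, a lipoprotein receptor (1.79 ± 0.10), KLHL24 (1.55 ± 0.14), and the autophagy genes SQSTM1 (0.90 ± 0.08) and MAP1LC3B (0.67 ± 0.10). At 6 h 4 of the 7 rose, where 5.62% of all genes did, KLHL24 by 0.99 ± 0.15, SQSTM1 by 0.70 ± 0.08, MAP1LC3B by 0.36 ± 0.11 and VEGFA by 0.29 ± 0.09. The MAP1LC3B call was lost without BRD8518 6 h replicate 1 (0.21) and in a fit of the 6 h groups alone (adjusted p = 0.253), and the VEGFA call in 7 of 15 alternative fits (0.27 to 0.37 over the 15). With OSM at 24 h KLHL24 rose by 0.81 ± 0.14 and VLDLR by 0.65 ± 0.10, and at 1 h VEGFA rose by 0.58 ± 0.09.

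The genes of the ER folding arm, which XBP1 and ATF6 drive during unfolded protein stress, went the other way with BRD8518. Of 8 measured, 3 fell at 6 h and 7 at 24 h, where 8.86% and 15.6% of all genes fell. The 6 h falls were those of SDF2L1 (-0.58 ± 0.15), CRELD2 (-0.52 ± 0.17) and MANF (-0.28 ± 0.07), and all 3 calls were lost in a fit of the 6 h groups alone (adjusted p = 0.291, 0.464 and 0.25). SDF2L1 was also lost without BRD8518 6 h replicate 2 (-0.46), MANF without BRD8518 6 h replicate 1 (-0.23), and CRELD2 in 7 of 15 alternative fits. Without DMSO 6 h replicate 2, SDF2L1 and CRELD2 changed by -0.40 and -0.30, and both passed. SDF2L1, an ER chaperone cofactor, changed by -1.23 ± 0.14 at 24 h (adjusted p = 3.91e-07), MANF by -0.95 ± 0.06 (adjusted p = 1.31e-10), CRELD2 by -0.85 ± 0.16 and XBP1 by -0.65 ± 0.08 (adjusted p = 6.16e-07). The median change of the 8 was -0.57, and SEL1L did not pass (-0.23 ± 0.10, adjusted p = 0.0833). With OSM, XBP1 rose by 0.93 ± 0.08 at 1 h and 0.46 ± 0.08 at 24 h, and HYOU1 rose by 0.36 ± 0.09 at 24 h. That HYOU1 call was lost when the gene's probe sets were averaged (0.27, adjusted p = 0.0973). Against OSM at 24 h all 8 were lower with BRD8518 (median -0.84), where 12.3% of all genes passed as lower. XBP1, HYOU1 and SRXN1 were the list genes that passed in opposite directions with the 2 agents at 24 h, by -0.65 and 0.46, by -0.25 and 0.36, and by 1.07 and -0.31 with BRD8518 and OSM. The BRD8518 call of HYOU1 was lost in 9 of 16 alternative fits, and that of CALR at 24 h (-0.21 ± 0.06) in 4 of 16.

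**Figure D4:**
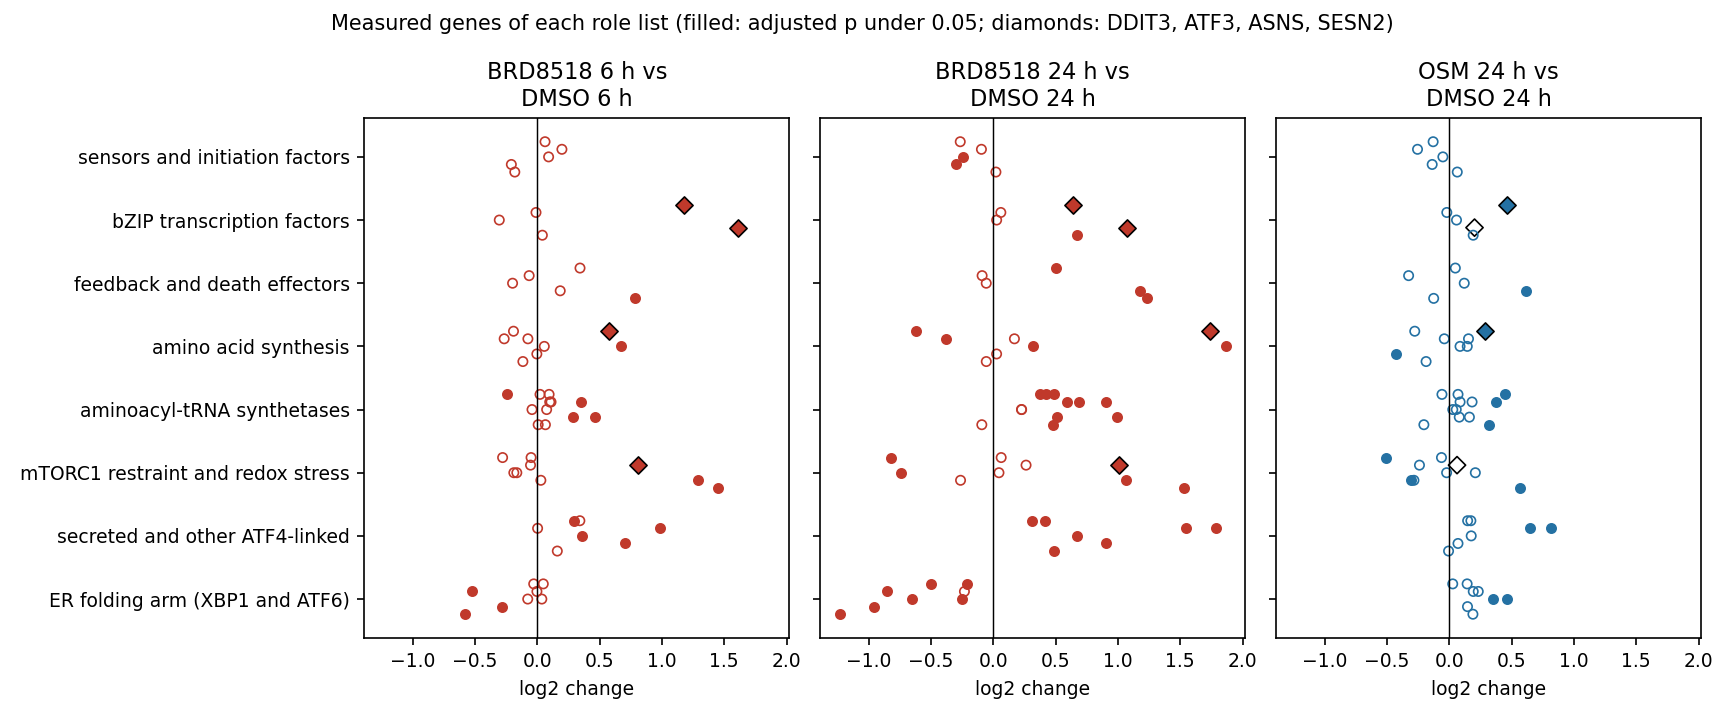
Change against DMSO of the same time (log2 difference, horizontal axis) for the measured genes of each role list (vertical axis) with BRD8518 at 6 h, BRD8518 at 24 h and OSM at 24 h; each point is a gene, filled where the adjusted p is under 0.05, and diamonds are DDIT3, ATF3, ASNS and SESN2. At 24 h with BRD8518, 9 of 12 aminoacyl-tRNA synthetases and 7 of 7 secreted and other ATF4-linked genes lie filled to the right, and 7 of 8 genes of the ER folding arm lie filled to the left. Of all genes 12.1% rose and 15.6% fell in that comparison.

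The 4 genes were compared in pattern over the 8 group means, which share a line, a platform and their vehicle groups, so these correlations are descriptions only. DDIT3 and SESN2 had r = 0.913, ASNS and SESN2 0.916, DDIT3 and ASNS 0.731, DDIT3 and ATF3 0.603, ATF3 and SESN2 0.34, and ATF3 and ASNS 0.222. The nearest genes below were picked by these same group means, so their changes follow in part from that choice. Among 1018 genes whose group means spanned at least 1 log2 unit, those nearest to DDIT3 were MXD1 (0.989), MIR24-2 (0.988) and MAFG (0.988). MXD1 encodes a MAX-binding repressor and MAFG a small MAF protein, and MXD1 rose by 1.90 ± 0.16 at 6 h and 1.496 ± 0.147 at 24 h with BRD8518. The MIR24-2 probe set may read the precursor or its host transcript, not the mature microRNA. Nearest to ATF3 were IER2 (0.951), an immediate early gene, ZC3H12A (0.937) and YPEL2 (0.936). With OSM at 1 h they rose by 1.45 ± 0.19, 1.19 ± 0.09 and 1.70 ± 0.17. Nearest to ASNS were GPAT3 (0.995), TMC7 (0.994) and ESAM (0.993), which rose by 3.21 ± 0.10, 3.603 ± 0.138 and 2.28 ± 0.10 with BRD8518 at 24 h. GPAT3 is an acyltransferase of triglyceride synthesis. Nearest to SESN2 were CTC1 (0.991), a telomere maintenance factor, MSANTD3-TMEFF1 (0.989) and SH3GLB1 (0.989). CTC1 rose by 0.91 ± 0.08 at 6 h and 1.01 ± 0.07 at 24 h with BRD8518, while its OSM changes of 0.03 ± 0.07 at 1 h and 0.10 ± 0.07 at 24 h did not pass (adjusted p = 0.965 and 0.519).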

How the data were processed

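HepG2 RNA was measured on 24 Affymetrix whole-transcript arrays. The authors deposited log2 values made with RMA with the package oligo (per the submitters' processing notes, no versions given), used here as deposited. RMA carries no detection calls, and the number of arrays limits the precision. The platform annotation named 1 symbol for 16098 of 53617 probe sets, and for 779 genes with several probe sets the one with the highest mean was kept, leaving 14884 genes. A single limma fit (limma 3.58.1, R 4.3.3) held the 8 group means, with plain empirical Bayes moderation (total df 21.3), 2-sided tests and Benjamini-Hochberg adjustment over all genes of a comparison. On simulated data with 14884 genes, the BRD8518 comparison at 24 h recovered 53% of genes changed by 0.5 and 98% of those changed by 1 (log2). The genes, lists and tests were chosen with earlier results of these data known. Text names the 4 genes, up to 4 list genes per direction and comparison, list genes passing in opposite directions at 24 h, and the 3 nearest genes by pattern. Alternatives were array weights, centring or quantile normalization, dropping genes below the median level, averaging probe sets, trend and robust moderation, fitting only the groups compared, the position letter as fixed or random term, and omitting each array. The counts of list genes without DMSO 6 h replicate 2 were added after seeing the data. Promoters were read from RefSeq (GRCh38.p14), where 4 of 4 genes matched by symbol. Figures used matplotlib 3.10.9.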

Additional observations from a re-analysis of the deposited data

Results flagged for a closer look

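The BRD8518 effect against vehicle differed between times, by the test of the difference itself, for all 4 genes between 1 h and 6 h (DDIT3 1.41, ATF3 0.67, ASNS 0.70 and SESN2 0.62, log2, later minus earlier). The ATF3 call (adjusted p = 0.0496) was lost in 10 of 12 fits that each left out 1 array, with the position letter as a fixed term (adjusted p = 0.286) and with the compared groups alone (adjusted p = 0.199), and the SESN2 call with the letter as a fixed term (adjusted p = 0.0593). Between 6 h and 24 h it differed for DDIT3 (-0.53, lost in 4 of 12 such fits and with the compared groups alone) and, in the other direction, for ASNS (1.16). Between 1 h and 24 h it differed for DDIT3 (0.87), ASNS (1.86) and SESN2 (0.82). The OSM effect differed between 1 h and 24 h for ATF3 (-0.91). All 6 h arrays share 1 position letter, and the letters of the 1 h and 24 h arrays also largely differ. Each effect was taken against vehicle arrays of the same time.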

How the results depend on the processing

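Of 306 refits of the changes of the 4 genes against vehicle, 288 kept their side of the threshold, 17 lost the call and 1 gained it. The sign changed in 2 refits, both of the uncalled ASNS change with OSM at 1 h (-0.01 without OSM 1 h replicate 3 and -0.03 without DMSO 1 h replicate 3), and in no called result. The ASNS rise with BRD8518 at 6 h was 0.58 with only the compared groups in the fit and did not pass (adjusted p = 0.0527). With the position letter as a fixed term the OSM 24 h changes of ATF3 (0.52, adjusted p = 0.0503) and ASNS (0.31, adjusted p = 0.0835) did not pass. The cause of these losses was not tested. Leaving out single arrays changed calls for ATF3 with BRD8518 at 1 h (0.31 to 0.67), DDIT3 with OSM at 1 h (0.44 to 0.53), and ATF3 (0.42 to 0.55) and ASNS (0.26 to 0.33) with OSM at 24 h. DDIT3 and ATF3 lie under the median level and had no value under that filter. Counts over all genes moved by more than 1.5 times: 38 with BRD8518 at 1 h (15 with the letter as a fixed term, 25 without BRD8518 1 h replicate 2, 76 without DMSO 6 h replicate 2, 81 with array weights), 2155 at 6 h (452 with the compared groups alone, 1208 and 1349 without BRD8518 6 h replicate 2 and replicate 1, 3345 without DMSO 6 h replicate 2, 3466 with array weights), 423 with OSM at 1 h (274 without DMSO 1 h replicate 3, 806 without DMSO 6 h replicate 2, 1125 with array weights) and 1526 with OSM at 24 h (2535 and 3068 under those last 2 settings). Without DMSO 6 h replicate 2 the list genes that fell numbered 9 with BRD8518 at 6 h, 2 with OSM at 1 h and 7 with OSM at 24 h. Of 106 calls of list genes over 7 comparisons, 84 held under every setting run. No paired analysis was possible because the labels give no replicate numbers that link arrays across groups.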
